A study of Mus musculus with 34 samples.

Results

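Cxcl12 and its receptors Cxcr4 and Cxcr7 were followed in the transcriptome of mouse cumulus cells (CCs), the somatic cells that surround the oocyte in the preovulatory follicle. The members were the entries named Cxcl12, Cxcr4 and Cxcr7 in the deposited table of reads per gene, 3 of 25965 entries, and all 3 were found. The set was chosen with its values known, since Cxcr7 was chosen by its fall in level in mice fed a high-fat diet (HFD) against chow for 16 weeks. The values of that comparison are therefore given as a description without a test, and tests are kept for libraries or genes that the choice did not use.

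The study compared CCs of C57BL/6J females in diet-induced obesity (DIO) and in a pharmacological hyperleptinemic model, with 34 RNA-seq libraries in 7 groups. Each library was made from about 50 cells of superovulated mice with the Smart-seq2 oligo-dT protocol. In the leptin experiment, mice 8 weeks old at the start received saline (16 C, n = 3) or 100 µg of leptin per day (16 L, n = 5) by intraperitoneal injection for 16 days. In the diet experiment, mice 8 weeks old at the start were fed chow diet (CD) or HFD for 4 weeks (4-week CD, n = 5, and 4-week HFD, n = 5) or for 16 weeks (16-week CD, n = 6, and 16-week HFD, n = 7). A further 3 mice fed HFD for 16 weeks had been labelled low weight gainers. By the labels, fat gave 11% of the energy in CD and 58% in HFD. The mice that received injections had the same strain and starting age, and their diet is not stated in the labels. The labels do not say how weight gain was cut to define the low weight gainers.

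Cxcl12 is a CXC chemokine that holds and attracts cells bearing Cxcr4, a receptor that signals through inhibitory G proteins, and the pair guides primordial germ cells to the gonad in the embryo. Cxcr7, now called Ackr3, is an atypical receptor that also binds Cxcl12. It couples to arrestins in place of the classical G protein response and takes the ligand into the cell, so that it can lower the amount of Cxcl12 that reaches Cxcr4.

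Total counts ranged from 1104611 to 13207018 reads per library, with a median of 4035576. Levels are given as RPM, the reads of a gene over the total counts of its library, times 1000000. A gene with no read in a library could still have up to 3 reads, which was 0.227 to 2.72 RPM depending on the library. All 14 markers of cumulus and granulosa cells had reads in each group, except that Amh had none in the low weight gainers. Their summed level ranged from 3112 to 7914 RPM in 33 libraries. It was 767 RPM in 16 L replicate 18, where markers of oviduct epithelium summed to 30037 RPM, of theca and stroma to 1600 RPM and of red blood cells to 9805 RPM. This library stood apart from the other leptin libraries. The log2 fold changes of 16 L against 16 C named below are given with and without it, and other values include it unless stated. Replicate 21 of 16 L also held more of these lists than the remaining leptin libraries, with 2289 RPM of oviduct epithelium, 74.2 RPM of theca and stroma and 2549 RPM of red blood cell markers. In 16 L replicates 20 and 23, oviduct epithelium markers summed to 1594 and 588 RPM and leukocyte markers to 1218 and 1430 RPM. The highest sums in 16 C were 101 RPM for oviduct epithelium and 449 RPM for leukocytes. Values without replicate 18 therefore still include libraries rich in markers of other cells. In 4-week HFD replicate 5, oocyte markers summed to 319 RPM, with 8 of 8 detected, against 0.648 to 3.37 RPM in the other 4 libraries of its group.

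In GRCm38, Cxcl12 lies on the plus strand at chr6:117168535-117181367, Cxcr4 on the minus strand at chr1:128588199-128592293 and Cxcr7 on the plus strand at chr1:90203980-90216751. The exons of the annotation used here (GENCODE M21) cover 8176, 1808 and 3348 bases, respectively. The promoters of both receptors are shown because their levels did not overlap between some groups. These were 4-week CD and 4-week HFD for Cxcr4, and 16 C and 16 L, and 16-week CD and 16-week HFD, for Cxcr7. The windows are the 250 bases before the RefSeq start of transcription (RefSeq, GRCm38.p6). They lie at chr1:128592300-128592549 on the minus strand for Cxcr4 and at chr1:90203730-90203979 on the plus strand for Cxcr7. Both run 5′ to 3′ along the gene. Capitals mark the letters TATAAA, the consensus bound by the basal transcription machinery, and the letters GGGCGG, the consensus of Sp1 sites, on either strand of the window:
Cxcr4: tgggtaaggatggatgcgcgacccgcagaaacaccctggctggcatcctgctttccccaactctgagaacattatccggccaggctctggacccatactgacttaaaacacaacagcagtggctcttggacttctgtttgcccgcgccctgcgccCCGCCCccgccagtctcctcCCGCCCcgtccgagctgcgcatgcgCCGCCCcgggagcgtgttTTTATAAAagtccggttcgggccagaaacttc
Cxcr7: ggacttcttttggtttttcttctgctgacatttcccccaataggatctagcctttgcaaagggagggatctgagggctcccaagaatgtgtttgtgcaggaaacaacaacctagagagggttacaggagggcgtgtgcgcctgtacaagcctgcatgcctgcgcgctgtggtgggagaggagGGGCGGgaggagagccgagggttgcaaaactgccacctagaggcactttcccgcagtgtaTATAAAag

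TATAAA on the strand of the gene began 30 bases before the start in Cxcr4 and 8 bases before it in Cxcr7. In Cxcr4 it overlapped the same letters on the opposite strand. On either strand, TATAAA was in 12.4% of the 32851 mouse windows of this length. GGGCGG was found 3 times in Cxcr4, each on the opposite strand, and 1 time in Cxcr7, and 32.7% of windows held it. The letters ACGTG, the core of the hypoxia response element, and CCATNTT, the core bound by Yy1, were in neither of the windows, while 16.6% and 12.4% of windows held them. These are matches of letters, chosen after the sequences were seen, and not measured binding sites.

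The ligand was the least abundant of the 3 genes. Cxcl12 had 225 reads in all, spread over 18 of the 34 libraries, and 146 of these reads were in 16 L replicate 18. Cxcr4 had 728 reads and Cxcr7 had 1238, and both were detected in 34 of 34 libraries. Per kb of exon, the mean levels in 16-week CD were 0.0723 RPM per kb for Cxcl12, 1.32 for Cxcr4 and 4.58 for Cxcr7.

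**Figure D1:**
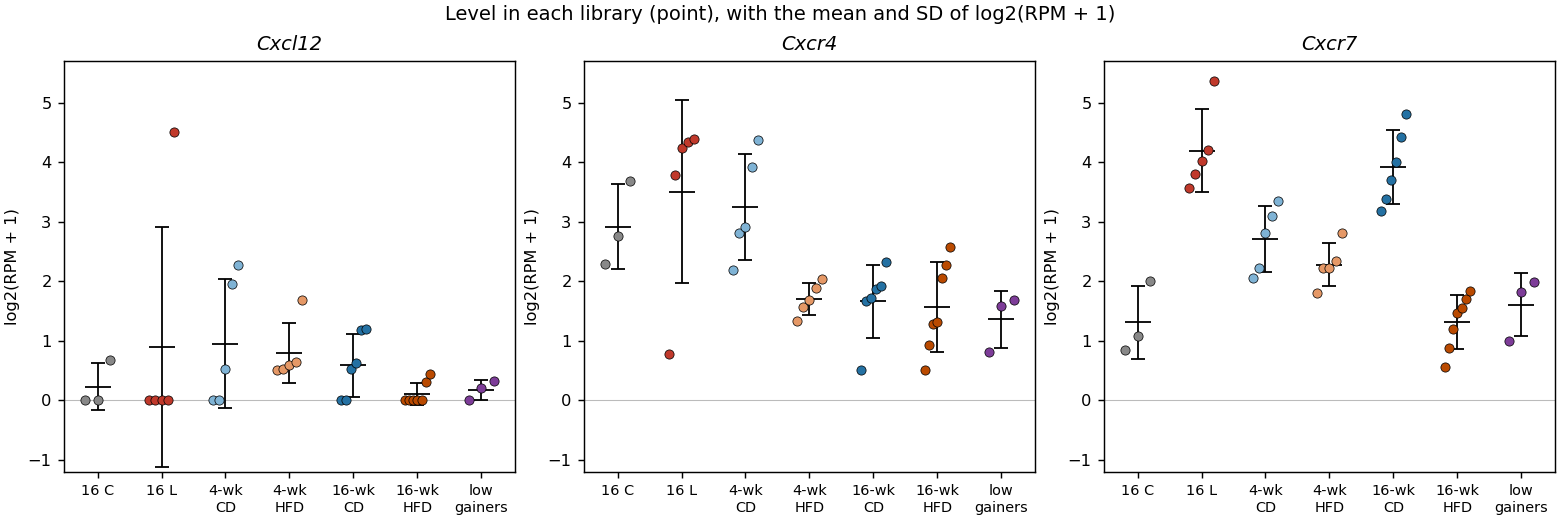
Level of each gene in each library, as log2(RPM + 1), in the 7 groups, with the mean and SD as bars. Cxcr7 was high in 16 L and 16-week CD, Cxcr4 was lower in each 4-week HFD library than in any 4-week CD library, and Cxcl12 was at 0 in 16 of the 34 libraries.

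None of the 4 tests run on Cxcl12 passed the threshold of 0.05. In the leptin experiment its level was 0, 0.606 and 0 RPM in the 16 C libraries, 21.8 RPM in 16 L replicate 18 and 0 in the other 4 libraries of 16 L. The groups overlapped, and the exact permutation test of the mean log2(RPM + 1) gave p = 1.0 (two-sided, n = 3 and 5, smallest possible p = 0.0357). Without replicate 18, 16 L had no Cxcl12 read at all.

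In 4-week CD, Cxcl12 was at 2.87, 0, 0, 3.82 and 0.446 RPM, from 19, 0, 0, 7 and 2 reads. In 4-week HFD it was at 0.422, 0.507, 2.21, 0.432 and 0.554 RPM, from 3, 2, 9, 4 and 7 reads. All 5 HFD libraries had at least 2 reads and 2 of the CD libraries had none, so the ranges overlapped, and the exact permutation p was 0.825 (two-sided, n = 5 and 5, smallest possible p = 0.00794).

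At 16 weeks, Cxcl12 had 14 reads in 4 of 6 CD libraries, with a lowest, median and highest level of 0, 0.492 and 1.30 RPM. In 16-week HFD it had 2 reads, 1 in each of 2 of 7 libraries, with 0, 0 and 0.354 RPM. The low weight gainers were at 0.148, 0.250 and 0 RPM, from 1, 1 and 0 reads. They overlapped both 16-week groups (exact permutation test, two-sided, p = 0.567 against HFD, n = 3 and 7, and p = 0.238 against CD, n = 3 and 6).

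Cxcr4, the signalling receptor, was lower in 4-week HFD than in 4-week CD. Its level was 14.2, 19.8, 6.55, 6.01 and 3.57 RPM in the CD libraries, from 94, 27, 25, 11 and 16 reads. In the HFD libraries it was 1.97, 1.52, 2.21, 2.70 and 3.08 RPM, from 14, 6, 9, 25 and 39 reads. The highest HFD library lay below the lowest CD library, and the HFD libraries were close to one another, with a mean of 2.30 ± 0.613 RPM (SD, n = 5) against 10.0 ± 6.77 RPM (SD, n = 5), 4.37-fold lower.

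The log2 fold change of Cxcr4 was −1.96 (SE 0.483, 95% interval −2.99 to −0.94) with an adjusted p of 0.0359 (edgeR quasi-likelihood test, Benjamini-Hochberg over all genes). The exact permutation p of the single gene was 0.00794, the smallest that 5 against 5 libraries can give. In this comparison 3.06% of the genes tested passed the threshold with a lower level in HFD, and 4.94% were lower without overlap. With 1 library left out, the log2 fold change stayed between −2.20 and −1.62. The call was lost when any library other than 4-week CD replicate 11 was left out, with an adjusted p of 0.0534 (without 4-week HFD replicate 14) to 0.0850 (without 4-week CD replicate 2), and it was kept at 0.00696 without 4-week CD replicate 11. Without 4-week HFD replicate 5, the library with oocyte markers, the log2 fold change was −1.93 with an adjusted p of 0.0780 (edgeR), and the part of these markers in the difference was not tested. The fit of all 34 libraries gave 0.117 and DESeq2 gave 0.00401. Of all genes tested, 14.4% passed in either direction without 4-week CD replicate 11, 6.92% with DESeq2 and 0.521% with all 34 libraries. In the main fit the share was 4.26%.

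Markers of other cells were present in both 4-week groups. Leukocyte markers summed to 52.8 to 517 RPM in CD, with 9 of 9 detected, and to 70.4 to 315 RPM in HFD, with 8 of 9 detected and Cd3e at 0. Endothelial markers summed to 14.9 to 50.2 RPM in CD and to 9.41 to 22.9 RPM in HFD, with Kdr, Tie1 and Cldn5 at 0 in both groups. Their part in the difference of Cxcr4 was not tested. In bulk samples such as these, fewer cells of a type and less RNA per cell cannot be told apart.

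In the other 3 comparisons in which Cxcr4 was tested, it did not pass the threshold. It was at 3.91, 5.75 and 11.9 RPM in 16 C and at 12.8, 0.724, 19.2, 19.9 and 17.8 RPM in 16 L. Replicate 19 was the lowest of all 8 leptin-experiment libraries, the other 4 libraries of 16 L were above each 16 C library, and the groups overlapped. The log2 fold change was 0.13 (SE 0.830, 95% interval −1.72 to 1.99, adjusted p = 0.929, edgeR quasi-likelihood test), and it was −0.08 (adjusted p = 0.942, edgeR) without replicate 18.

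At 16 weeks, the lowest, median and highest Cxcr4 levels were 0.425, 2.47 and 3.99 RPM in CD and 0.429, 1.50 and 4.95 RPM in HFD. The ranges overlapped, with means of 2.39 ± 1.16 RPM (SD, n = 6) and 2.32 ± 1.68 RPM (SD, n = 7). The low weight gainers were at 2.22, 2.00 and 0.759 RPM, inside both ranges. Their log2 fold change was −0.65 against HFD (SE 0.655, 95% interval −2.02 to 0.73, adjusted p = 0.501, edgeR) and −0.38 against CD (SE 0.689, 95% interval −1.89 to 1.12, adjusted p = 0.876, edgeR). These comparisons share the low weight gainer libraries.

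**Figure D2:**
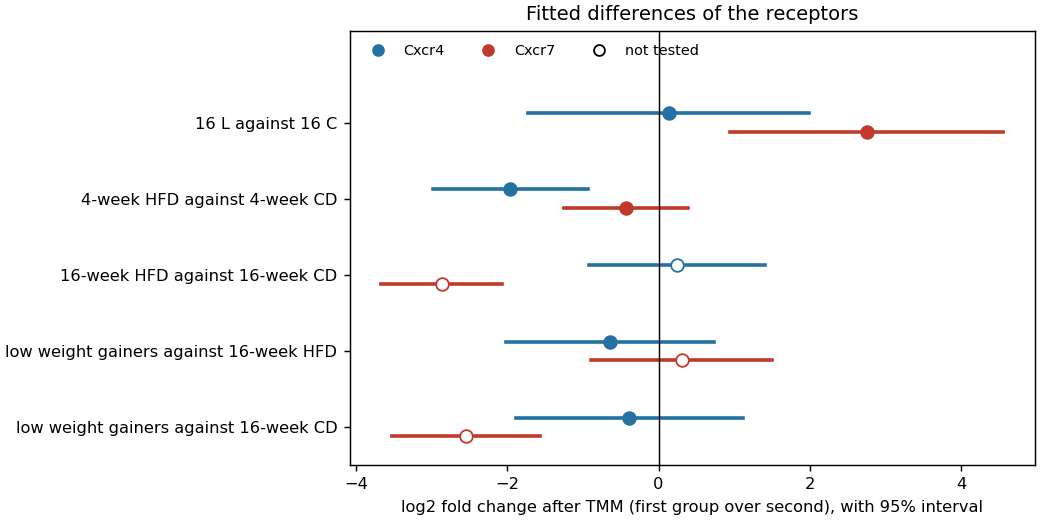
Fitted log2 fold change of Cxcr4 and Cxcr7 after TMM scaling (trimmed mean of M values), first group over second, with the 95% interval. Open points were not tested because 16-week CD and 16-week HFD had been used to choose Cxcr7. The interval of Cxcr7 in 16 L lies wholly above 0, and that of Cxcr4 in 4-week HFD lies wholly below 0. The intervals are not adjusted for the number of genes tested.

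Cxcr7, the atypical receptor, was higher in each leptin library than in each saline library. It was at 1.12, 3.03 and 0.796 RPM in 16 C, from 2, 40 and 3 reads, and at 40.4, 17.5, 15.3, 10.9 and 12.9 RPM in 16 L, from 271, 145, 27, 12 and 29 reads. The groups did not overlap, and the means were 1.65 ± 1.21 RPM (SD, n = 3) and 19.4 ± 12.0 RPM (SD, n = 5), 11.8-fold higher. Without replicate 18, the other 4 libraries had a mean of 14.1 ± 2.87 RPM (SD, n = 4), 8.58-fold above 16 C.

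The fitted log2 fold change of Cxcr7 was 2.75 (SE 0.811, 95% interval 0.94 to 4.56), and the adjusted p was 0.0604, not past the threshold of 0.05 (edgeR quasi-likelihood test, Benjamini-Hochberg). The exact permutation p was 0.0357, the smallest possible for 3 against 5 libraries. A level higher without overlap was common here, at 26.8% of the genes tested, whereas 4.06% passed the threshold with a higher level. The adjusted p of Cxcr7 was 0.0269 without replicate 18 (log2 fold change 1.88, edgeR), 0.0855 without replicate 21 (2.93, edgeR), 0.0104 with DESeq2, 0.0128 with library totals in place of TMM and 0.00129 with all 34 libraries in one fit. It was 0.0610 with RLE scaling and 0.0836 without a filter on low counts. Over the libraries left out in turn it was 0.0269 to 0.220. The fits in which Cxcr7 passed also called many other genes. Of all genes tested, 41.8% passed in either direction without replicate 18, 13.6% with DESeq2, 34.4% with library totals and 33.1% with all 34 libraries. In the main fit the share was 8.56%. Over all genes tested the median log2 fold change was 0.27 after TMM and 1.08 with library totals, so RPM ran higher in 16 L for many genes.

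Markers of oviduct epithelium summed to 91.1 to 101 RPM in 16 C, with 5 of 6 detected and Foxj1 at 0, and to 102 to 30037 RPM in 16 L, with 6 of 6 detected. Theca and stroma markers summed to 0.559 to 2.42 RPM in 16 C, with Cyp17a1, Lum and Acta2 at 0, and to 4.22 to 1600 RPM in 16 L, with 8 of 8 detected. Leukocyte markers summed to 71.9 to 449 RPM in 16 C and to 75.4 to 1430 RPM in 16 L. Red blood cell markers summed to 1.06 to 19.3 RPM in 16 C and to 3.74 to 9805 RPM in 16 L, with 3 of 3 detected in both groups. Oocyte markers summed to 0.909 to 1.33 RPM in 16 C, with 3 of 8 detected and Zp1, Zp2, Zp3, Bmp15 and Nlrp5 at 0, and to 3.02 to 14.9 RPM in 16 L, with 7 of 8 detected and Zp1 at 0. The oviduct, theca and oocyte sums of each leptin library lay above those of each saline library. The part of these cells in the level of Cxcr7 was not tested.

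**Figure D3:**
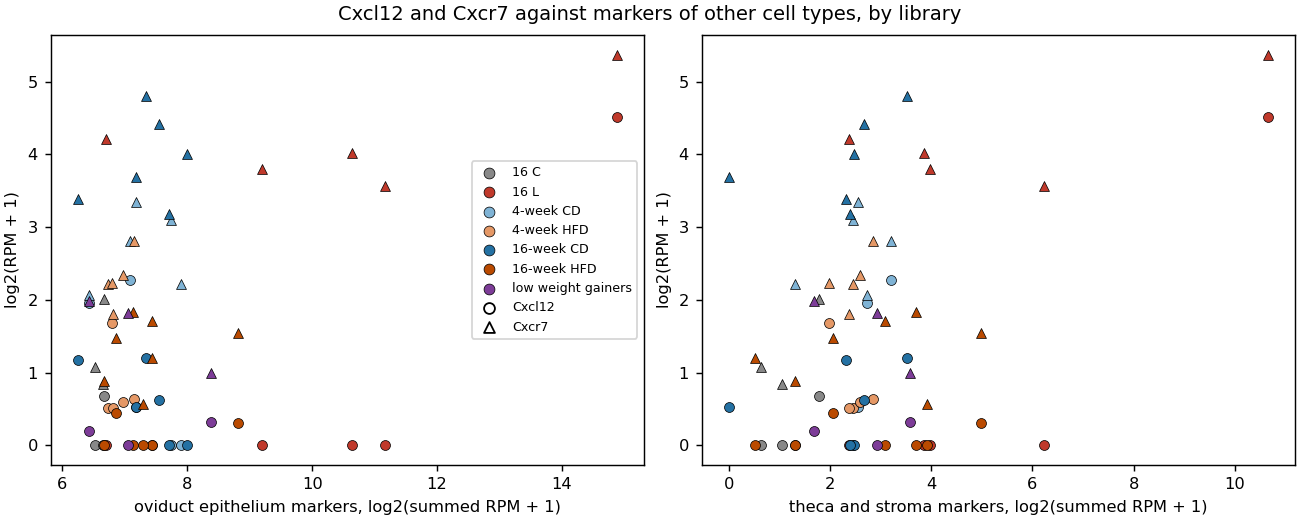
Cxcl12 (circles) and Cxcr7 (triangles) in each library, as log2(RPM + 1), against the summed RPM of oviduct epithelium markers (left) and theca and stroma markers (right), on log2 axes. 16 L replicate 18 lies far to the right at 30037 and 1600 RPM and holds the highest level of both genes, and Cxcr7 of the other 4 libraries of 16 L lies between 10.9 and 17.5 RPM.

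After 4 weeks of diet, Cxcr7 was at 3.18, 3.67, 7.60, 6.01 and 9.14 RPM in CD and at 3.65, 4.06, 3.69, 2.49 and 6.01 RPM in HFD. The ranges overlapped, with 4 of 5 HFD libraries above the lowest CD library, and the means were 5.92 ± 2.54 and 3.98 ± 1.28 RPM (SD, n = 5 each). The log2 fold change was −0.43 (SE 0.386, 95% interval −1.25 to 0.38, adjusted p = 0.501, edgeR quasi-likelihood test), and the exact permutation p was 0.190.

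At 16 weeks, in the comparison that chose it, Cxcr7 had a lowest, median and highest level of 8.07, 13.5 and 27.1 RPM in CD and of 0.480, 1.77 and 2.56 RPM in HFD. All 7 HFD libraries lay below all 6 CD libraries, from 39 reads against 373. The means were 15.3 ± 7.24 RPM (SD, n = 6) and 1.59 ± 0.754 RPM (SD, n = 7), 9.64-fold lower, with a fitted log2 fold change of −2.87 (SE 0.380). Among genes whose groups did not overlap, 0.718% of those tested being lower in HFD in this way, Cxcr7 had the largest fitted fall, and Ucp2 followed at −2.72 and Rhbdf1 at −2.04. Among all genes tested it ranked 7 by fall, with overlapping genes above it, a rank that describes how the gene was chosen. In this comparison 0.0276% of genes passed the threshold in either direction. Over the settings and left-out libraries tried, the log2 fold change of Cxcr7 ranged from −3.28 to −2.69.

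Cumulus and granulosa markers summed to 4035 to 7160 RPM in 16-week CD and to 3112 to 4347 RPM in 16-week HFD, with 14 of 14 detected in both. Theca and stroma markers summed to 0 to 10.4 RPM in CD and to 0.429 to 30.6 RPM in HFD, with Cyp17a1 at 0 in both, and leukocyte markers to 68.0 to 404 RPM and to 83.1 to 556 RPM, with Cd3e at 0 in both. Their part in the level of Cxcr7 was not tested.

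The low weight gainers had Cxcr7 levels of 2.97, 0.999 and 2.53 RPM, with a mean of 2.17 ± 1.03 RPM (SD, n = 3). All 3 libraries lay below the lowest 16-week CD library, where 5.04% of the genes tested were lower without overlap, and they overlapped the HFD libraries. The fitted log2 fold change was −2.55 (SE 0.447) against CD and 0.30 (SE 0.569) against HFD. These values are given without a test because 16-week CD and 16-week HFD had been used to choose the gene. Nr4a1, an orphan nuclear receptor that was lower in 16-week HFD without overlap, had a log2 fold change of −1.62 there. Its mean level was 28.1 ± 10.5 RPM in CD (SD, n = 6), 6.99 ± 2.45 RPM in HFD (SD, n = 7) and 20.4 ± 8.55 RPM in the low weight gainers (SD, n = 3), where it ranged from 12.7 to 29.6 RPM. Cumulus and granulosa markers summed to 5642 to 6527 RPM in the low weight gainers, with 13 of 14 detected and Amh at 0, inside the range of 16-week CD and above that of 16-week HFD. Their part in the levels of Cxcr7 and Nr4a1 was not tested.

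Across the 7 groups, mean Cxcr7 was highest in 16 L, followed by 16-week CD, 4-week CD, 4-week HFD, the low weight gainers, 16 C and 16-week HFD. Neighbours differed by more than the larger of their SDs only between 16-week CD and 4-week CD and between 4-week HFD and the low weight gainers. This order includes 16 L replicate 18. Without that library, mean Cxcr7 in 16 L was 14.1 RPM, below the 15.3 RPM of 16-week CD, so these groups changed places. The control groups themselves were far apart, with means of 1.65 RPM in 16 C, 5.92 RPM in 4-week CD and 15.3 RPM in 16-week CD. They differ in age and in handling, and the differences between them were not tested. For Cxcr4 the order was 16 L, 4-week CD, 16 C, 16-week CD, 16-week HFD, 4-week HFD and the low weight gainers, with a gap above the larger SD only between 16 C, at 7.20 ± 4.20 RPM (SD, n = 3), and 16-week CD. Without 16 L replicate 18, mean Cxcr4 in 16 L was 14.4 RPM and stayed the highest. For Cxcl12, with all libraries, no neighbours differed by more than the larger SD.

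The balance of the receptors was described as the share of Cxcr7 in the summed levels per kb of Cxcr7 and Cxcr4. Cxcr7 was the more abundant receptor in 6 of 6 libraries of 16-week CD, with a lowest, median and highest share of 56.1%, 79.0% and 91.1%. The share was 6.32%, 41.9% and 61.8% in 16-week HFD, where 2 of 7 libraries had more Cxcr7 than Cxcr4. It was 13.4%, 22.1% and 3.48% in 16 C and 63.0%, 92.9%, 30.0%, 22.8% and 28.1% in 16 L. Each leptin library exceeded each saline library, but by little between 16 L replicate 21, at 22.8%, and 16 C replicate 2, at 22.1%. The former share came from 12 Cxcr7 and 22 Cxcr4 reads, and 16 C replicates 1 and 3 had 2 and 3 Cxcr7 reads. Of all genes tested in this comparison, 26.8% had a level higher in 16 L without overlap. At 4 weeks, the share was 10.8%, 9.09%, 38.5%, 35.1% and 58.1% in CD and 50.1%, 59.0%, 47.4%, 33.2% and 51.3% in HFD, with overlapping ranges. The low weight gainers were at 41.9%, 21.3% and 64.3%. These shares rest on the same reads as the levels above and were not tested. Cxcr7 was chosen by its fall from 16-week CD to 16-week HFD, so the difference in share between those groups restates that choice.

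**Figure D4:**
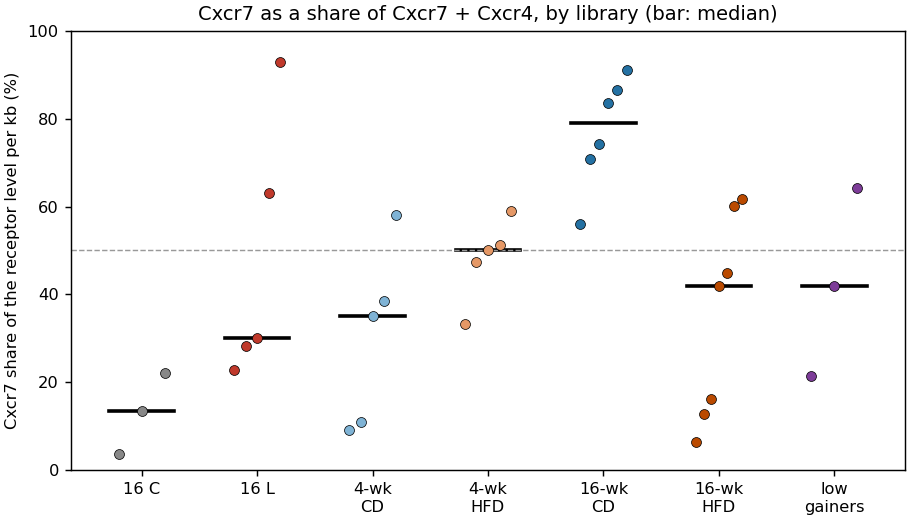
Share of Cxcr7 in the summed level per kb of Cxcr7 and Cxcr4, in percent, for each library, with the median of each group as a bar and a dashed line at 50%. All 6 libraries of 16-week CD lie above the line, and the 3 libraries of 16 C lie at 22.1% or below. Cxcr7 was chosen by its fall from 16-week CD to 16-week HFD.

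Within groups, after the mean of each group was subtracted, Cxcr4 and Cxcr7 had a Spearman rho of −0.329 over the 34 libraries. The genes most like Cxcr4 by this measure among 11224 compared were Med13l (rho 0.798), Serbp1 (0.788) and Sp1 (0.786). Those most like Cxcr7 were Mtbp (0.742), Mcm4 (0.657) and Cdk5rap1 (0.643). The summed endothelial markers had a rho of 0.434 with Cxcr4, and the library total had a rho of 0.402 with Cxcr7. These are descriptions over libraries that share amplification and depth. Cxcl12 had too few reads for such a ranking.

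The genes around the receptors were taken from 9 lists with 129 genes, all found in the table, that cover other ligands and cofactors, proteases that cut Cxcl12, G proteins, receptor kinases and arrestins, sorting, downstream kinases, regulators of transcription and related chemokines and receptors. The lists leave out the 3 members.

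In 16 L, 9 of 93 tested genes rose and 2 fell, 11.8% against 8.56% of all genes tested, and the median log2 fold change was 0.97 against 0.27 for all genes. The genes that rose were of the G protein and kinase lists, with Rela, a subunit of NF-κB, besides. Gnai1, an inhibitory G protein subunit, had a log2 fold change of 3.14 (SE 0.766, adjusted p = 0.0395, edgeR), Pxn, the focal adhesion adaptor paxillin, 3.10 (adjusted p = 0.0149, edgeR), and Gnb2, a G protein beta subunit, 2.31 (adjusted p = 0.0294, edgeR). Pik3cd, a catalytic subunit of phosphoinositide 3-kinase, was at 2.25, Rela at 2.03, the kinase Mapk3 at 1.81 and the kinase Akt2 at 1.71. Sdc4, a heparan sulfate proteoglycan of the cell surface, had the largest change of the 11 listed genes past the threshold with all libraries, −3.93 (SE 0.517, adjusted p = 0.00829, edgeR), from 7936 ± 1863 RPM in 16 C (SD, n = 3) to 899 ± 163 RPM in 16 L (SD, n = 5). Without replicate 18 these 8 genes kept their direction and call, with log2 fold changes of 2.31 for Gnai1, 3.07 for Pxn, 2.29 for Gnb2, 2.42 for Pik3cd, 2.16 for Rela, 1.67 for Mapk3, 1.72 for Akt2 and −4.15 for Sdc4 and adjusted p of 7.67e-05 to 0.00638 (edgeR). The median of the listed genes was then 0.65 against 0.10 for all genes. Replicates 20, 21 and 23 of 16 L, which stayed in this fit, held oviduct epithelium markers at 588 to 2289 RPM. In 16 C these markers summed to at most 101 RPM. The part of other cells in the changes of the listed genes was not tested. The number of listed genes past the threshold was 42 of 86 without replicate 18, with 29 higher and 13 lower, beside 4635 of 11077 genes in all. It was 1 of 105 (Sdc4) without 16 C replicate 1, beside 30 of 12767, and 2 of 92 (Pxn and Sdc4) without 16 L replicate 21, beside 150 of 11701. With library totals the split was 47 higher and 1 lower of 93, beside 3652 higher and 383 lower of all genes. With all 34 libraries in one fit it was 36 higher and 10 lower of 108, beside 2720 higher and 1664 lower.

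Of the 8 partners named for every comparison (Mif, Cd74, Dpp4, Arrb1, Arrb2, Gnai2, Hif1a and Itch), none passed the threshold in 16 L with all libraries. Mif, a cytokine that also binds Cxcr4 and Cxcr7, was at 0.79 (adjusted p = 0.124, edgeR) and its receptor Cd74 at 1.68 (0.181). Among transducers, Gnai2 was at 1.22 (0.108) and the arrestins Arrb1 and Arrb2 were at 1.05 (0.175) and 1.99 (0.0884). Itch, a ubiquitin ligase that sorts Cxcr4 for degradation, was at 0.97 (0.150) and Hif1a, the hypoxia regulator, at 0.25 (0.754). Without replicate 18, Itch at 1.10 (adjusted p = 0.00525, edgeR), Arrb2 at 2.08 (0.0301) and Gnai2 at 1.22 (0.0439) were past the threshold, and Mif at 0.68 (0.0587), Arrb1 at 1.07 (0.0777), Cd74 at 1.27 (0.198) and Hif1a at 0.36 (0.437) were not. Dpp4, a protease that inactivates Cxcl12, failed the filter on low counts, with 0.454 ± 0.787 RPM in 16 C (SD, n = 3) and 4.99 ± 8.03 RPM in 16 L (SD, n = 5). The level in 16 L includes replicate 18.

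In 4-week HFD, where Cxcr4 fell, 1 of 91 listed genes rose and 6 fell, 7.69% against 4.26% of all genes tested, with a median log2 fold change of 0.01 against −0.01. Cxcr5, the receptor of Cxcl13, had the largest fall of the 6, −2.54 (SE 0.471, adjusted p = 0.0189, edgeR), from 7.25 ± 3.09 RPM to 1.07 ± 0.437 RPM (SD, n = 5 each) without overlap. The regulators Yy1, a zinc finger transcription factor, and Egln1, the oxygen sensor that marks Hif1a for removal, fell by 1.69 and 1.55 (adjusted p = 0.0398 and 0.00785, edgeR). The exchange factor Vav2 fell by 1.46, Adrbk1, the receptor kinase also called Grk2, by 1.44 and the G protein subunit Gnao1 by 1.01 on the log2 scale. Rab5a, a GTPase of early endosomes, rose by 1.84 (adjusted p = 0.0253, edgeR). The number past the threshold was 1 to 13 over the libraries left out in turn, with 1 of 95 (Egln1) without 4-week CD replicate 8, beside 8 of 11876 genes in all, and 13 of 93 without 4-week CD replicate 11, beside 1700 of 11794. Without 4-week HFD replicate 5, 1 of 95 passed, beside 22 of 11964, which was Egln1 at −1.53 (adjusted p = 0.0383, edgeR). Cxcr5 was then at −2.49 and Rab5a at 1.91 (adjusted p = 0.0546 for both, edgeR).

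None of these 8 partners was past the threshold in 4-week HFD. Hif1a was at 0.91 (adjusted p = 0.0669, edgeR), Arrb2 at −0.99 (0.122) and Arrb1 at −0.43 (0.313). Cd74 was at 1.08 (0.250), Gnai2 at 0.17 (0.843), Mif at 0.07 (0.894) and Itch at 0.06 (0.919). Dpp4 had no read in 4-week CD and 0.337 ± 0.492 RPM in 4-week HFD (SD, n = 5).

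In 16-week HFD, 0 of 87 listed genes passed the threshold of edgeR's quasi-likelihood test, while 27 had an unadjusted p under 0.05, beside 2748 of all 10861 genes tested, and DESeq2 called 14 of 117, beside 1130 of 17572. The median log2 fold change was −0.15 against −0.05 for all genes. Without 16-week CD replicate 9, 19 of 85 passed, beside 2222 of 10830. Hspg2, the basement membrane proteoglycan perlecan, had the largest fitted fall of the listed genes, −3.49 (adjusted p = 0.0654, edgeR), with overlapping levels of 156 ± 232 RPM in CD (SD, n = 6) and 8.84 ± 3.94 RPM in HFD (SD, n = 7). The log2 fold changes of the partners were −0.997 for Arrb1, −0.67 for Itch, −0.56 for Arrb2, −0.30 for Gnai2, −0.27 for Mif, −0.10 for Hif1a and 0.31 for Cd74, with adjusted p between 0.132 and 0.812 (edgeR). Dpp4 was at 0.148 ± 0.362 RPM in CD (SD, n = 6) and 0.431 ± 0.989 RPM in HFD (SD, n = 7).

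Between the low weight gainers and 16-week HFD, 11 of 89 listed genes were higher and 9 lower, 22.5% against 20.7% of all genes tested, a share near that of all genes. Cebpb, a transcription factor of the ovulatory response, was at 1.88, Arrb2 at 1.69 and the kinase Akt1 at 1.62 (adjusted p = 0.00584, 0.0143 and 0.00189, edgeR). Hgs, which sorts ubiquitinated receptors, was at 1.53 and Gna13, a G protein alpha subunit, at 1.45. Rgs2, which shortens G protein signals, was at −1.64, the cytoskeletal kinase Rock2 at −1.42 and Yy1 at −1.35. Gnai2 was also higher, at 0.82 (adjusted p = 0.0258, edgeR). The other partners were at 0.76 for Arrb1 (0.0774), 0.80 for Cd74 (0.536), 0.13 for Mif (0.680), −0.12 for Itch (0.750) and −0.33 for Hif1a (0.361), and Dpp4 was at 0.916 ± 1.59 RPM in the low weight gainers (SD, n = 3). With library totals the split was 13 higher and 5 lower of 89, and with all 34 libraries in one fit it was 7 higher and 0 lower of 108. Without low weight gainer replicate 23, 7 of 97 listed genes passed, 4 higher and 3 lower, beside 596 of 11492.

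Against 16-week CD, 0 of 91 listed genes passed in the low weight gainers by edgeR's quasi-likelihood test, while 0.00861% of all genes passed. An unadjusted p under 0.05 was found for 11 of them, beside 1299 of all 11620 genes tested, and DESeq2 called 2 of 118, beside 226 of 17164. The partners were at 1.15 for Arrb2 and for Cd74, 0.54 for Gnai2, −0.12 for Mif, −0.19 for Arrb1, −0.40 for Hif1a and −0.75 for Itch, with adjusted p between 0.461 and 0.933 (edgeR). The 3 comparisons at 16 weeks share libraries, and their values are set side by side only.

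**Figure D5:**
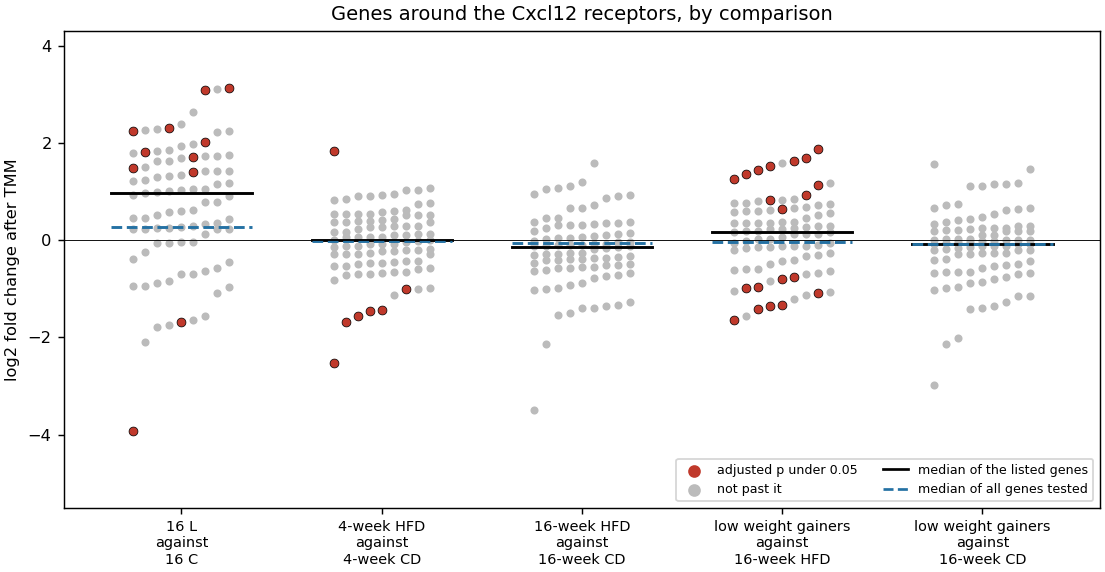
Log2 fold change after TMM of the listed genes around the receptors in each comparison, with genes past an adjusted p of 0.05 in red, the median of the listed genes as a solid bar and that of all genes tested as a dashed bar. In 16 L the listed genes have a median of 0.97 against 0.27 for all genes, and in the other comparisons both medians lie close to 0.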

How the data were processed

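RNA of CCs for 34 libraries was amplified by Smart-seq2, made into Nextera XT libraries and sequenced. The authors deposited 1 table of raw counts per gene and library, without normalization. The submitters' processing notes name Trim Galore 0.4.2, HISAT2 2.0.5 and GRCm38. The counting program, the annotation and its use of strand are not given in the sources used here. Every column was matched to a sample by its label. No replicate pair of the 72 within groups agreed within sampling noise (smallest chi-square per degree of freedom 3.39). The study's text describes a collection per animal, whereas the labels speak of cells from a single cumulus complex, so p-values measure the spread between these libraries.

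Differences in counts came from edgeR 4.0.16 in R 4.3.3 (TMM, filterByExpr, robust quasi-likelihood F-test, two-sided, the libraries of the 2 groups only) and adjusted by Benjamini-Hochberg over all genes tested, with a threshold of 0.05. Single genes were also compared by an exact permutation test of the mean log2(RPM + 1) with scipy 1.17.1. This was the main test for Cxcl12, which failed the filter in each comparison. RPM per kb used exon unions of GENCODE M21. Likeness was Spearman's rho on log2 CPM (prior count 1) after subtracting group means, over genes with at least 10 counts in at least 17 libraries. The pipeline was tested on simulated data in which known genes had been changed. The simulated counts followed the fitted spread of each gene and held no differences in cell mixture between libraries. They therefore do not show how stable the calls are in the real libraries.

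The members, gene lists and tests were chosen with earlier results of these data known. The text names the members, 8 partners, up to 8 listed genes per comparison past the threshold with the largest changes, the 3 genes most like each receptor, 1 further gene with a non-overlapping fall in 16-week HFD, and markers. Ucp2, Rhbdf1 and Hspg2 were named after their values were seen. The rule asked for 2 such genes past the threshold, leaving out Cxcr7, and only Nr4a1 was found. Alternatives were RLE scaling, library totals, no filter, all 34 libraries in one fit, DESeq2 1.42.0, a pseudocount of 0.1, Pearson's r and leaving out each library in turn. The limit of 3 reads for a count of 0 (95% confidence) covers counting error only. Of the red blood cell markers, 3 of 5 were found in the table. Proteins were not used here.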

Additional observations from a re-analysis of the deposited data

Results flagged for a closer look

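A total of 3 levels of the members lay far from the other libraries of their group by Dixon's test, of 15 sets of values checked, where chance flags about 1 in 20. Cxcl12 in 16 L replicate 18 was at 21.8 RPM, with 0 in the other 4 libraries of the group. With those at 0, any read in replicate 18 would have been flagged, so the rate of 1 in 20 does not apply to this set. Cxcr7 in the same library was at 40.4 RPM, against 10.9 to 17.5 RPM in the others. Cxcl12 in 4-week HFD replicate 5 was at 2.21 RPM from 9 reads, against 0.422 to 0.554 RPM in the others. That library also had oocyte markers at 319 RPM, against 0.648 to 3.37 RPM in the others, and their part in its level of Cxcl12 was not tested.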

How the results depend on the processing

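Of 334 values under an alternative, 232 kept their direction and their side of the threshold or moved by less than the spread, 10 lost the call, 4 gained one, 80 moved and 8 reversed. The 8 that reversed were past the threshold in neither fit. Cxcl12 in 4-week HFD, a difference of −0.16, was 0.40 with a pseudocount of 0.1, 0.09 when CD replicate 1 was left out and 0.17 when CD replicate 8 was, and ranged from −0.40 to 0.17 with 1 library left out. Cxcl12 in 16 L, at 0.67, was −0.23 without 16 L replicate 18 and ranged from −0.23 to 0.90. Cxcr4 in 16 L, at 0.13, was −0.17 without 16 C replicate 1 and −0.08 without 16 L replicate 18 and ranged from −0.17 to 0.66. In the low weight gainers, Cxcl12 against HFD, at 0.07, was −0.0072 without replicate 22 and ranged from −0.0072 to 0.15, and Cxcr4 against CD, at −0.38, was 0.0193 without replicate 23 and ranged from −0.63 to 0.0193. A further 2 values given without a test turned sign, Cxcr4 in 16-week HFD from 0.24 to −0.05 with library totals and Cxcr7 in the low weight gainers against HFD from 0.30 to −0.02 without replicate 21. Cxcr4 in 4-week HFD had a log2 fold change of −1.97 and no call with all 34 libraries in one fit, and −2.20 to −1.62 with 1 library left out. Cxcr7 in 16 L passed at 3.46 with library totals, 2.73 with all 34 libraries and 2.77 with DESeq2, and ranged from 1.88 to 3.80 with 1 library left out. Cxcl12 in 16-week HFD, a difference of −0.48 in mean log2(RPM + 1), was −1.55 with a pseudocount of 0.1, and its fitted log2 fold change was −2.13 without a filter, −2.25 with all 34 libraries and −2.24 with DESeq2, scales that are not comparable.

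The number of genes past the threshold depended on the fit. In 16 L it was 1004, and 4035 with library totals, 504 without a filter, 4384 with all 34 libraries, 2382 with DESeq2 and 30 to 4635 with 1 library left out. In 4-week HFD it was 499, and 69 with all 34 libraries, 1292 with DESeq2 and 8 to 1700 with 1 left out. In 16-week HFD it was 3, and 1646 with library totals, 13 without a filter, 1258 with all 34, 1130 with DESeq2 and 1 to 2222 with 1 left out, the last without 16-week CD replicate 9. In the low weight gainers it was 2330 against HFD, with 487 for all 34 libraries and 596 to 2732 with 1 left out, and 1 against CD, with 0 for library totals, 7 for all 34, 226 for DESeq2 and 0 to 1 with 1 left out. Of the listed genes, 11 passed in 16 L, with 48 for library totals, 6 without a filter, 46 for all 34, 28 for DESeq2 and 1 to 42 with 1 left out. In 4-week HFD 7 passed, with 2 for all 34, 12 for DESeq2 and 1 to 13 with 1 left out. In 16-week HFD 0 passed, with 14 for library totals, 12 for all 34, 14 for DESeq2 and 0 to 19 with 1 left out. In the low weight gainers 20 passed against HFD, with 7 for all 34 and 7 to 24 with 1 left out, and 0 against CD, with 2 for DESeq2. The cause of these shifts was not tested.

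By Pearson's r, the genes most like Cxcr4 were Zfp238 (0.816), Rsbn1l (0.807) and Ptma (0.799), and those most like Cxcr7 were Slc41a2 (0.737), Fam107b (0.732) and Armc9 (0.713), so the names depended on the measure. No paired analysis was possible because the groups compared share no replicate numbers. Low counts limit the values of Cxcl12 outside 16 L replicate 18, those of Cxcr7 in 16-week HFD, with 2 to 14 reads per library, and in 16 C, with 2, 40 and 3 reads, and those of Cxcr4 at 16 weeks, with 1 to 19 reads per library in CD, 1 to 16 in HFD and 3 to 15 in the low weight gainers.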
